A study of Mus musculus with 2 samples.

Results

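Basophils and mast cells were sought among live CD45+ cells sorted from lenvatinib-resistant Trp53KO/MYCOE liver tumors and profiled by scRNA sequencing. A cell was a member when it held at least 3 UMIs from at least 2 of Mcpt8, Cpa3, Ms4a2 and Gata2, at most 1 UMI of Cd3d, Cd3e and Cd3g together, and no UMI of Cd79a. A UMI (unique molecular identifier) marks 1 captured RNA molecule, so that copies made by PCR count once. The rule gave 68 members among 25814 kept cells, 39 of 14201 under lenvatinib and 29 of 11613 under combo. The members were thus selected on the measured UMIs of these 4 genes, whose levels are given as a description. The label held for only some of the members. Under lenvatinib 10 of 39 met a gate of mast cell genes and 14 of 39 a gate of basophil genes, both defined below. Under combo 8 of 29 met the basophil gate and none met the mast gate. Members in neither gate could hold such genes too. Of the Mcpt8 UMIs of lenvatinib members, 25.8% lay in cells of neither gate that are called remaining cells below. A further 18 of 29 under combo and 4 of 39 under lenvatinib met neither gate but held at least 10 UMIs of progenitor genes. The list of these genes included Cd34, Mpo and Cdk6. Some cells with basophil genes held such UMIs too, and they are not in this count.

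The tumors came from male C57BL/6J mice aged 6 to 8 weeks at injection, in which hydrodynamic delivery placed human MYC, a guide against Trp53 and the sleeping beauty transposase into hepatocytes. The plasmids target hepatocytes, and the CD45+ cells sequenced are immune cells of the host. Lenvatinib, an inhibitor of VEGF and FGF receptors and further tyrosine kinases, was given at 30 mg/kg from day 12 for 25 days, which gave tumors that grew under the drug. The mice then received lenvatinib alone at 30 mg/kg (lenvatinib) or together with palbociclib at 100 mg/kg (combo), an inhibitor of the cell cycle kinases CDK4 and CDK6. Both groups had therefore had lenvatinib, and neither was untreated. The number of mice behind each library is not given in the sources used here. With 1 library per group, no difference below has a replicate check, and library and treatment cannot be told apart. Intervals are exact 95% intervals (Clopper-Pearson for shares, Poisson for summed counts, conditional binomial for ratios) and cover counting error only.

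Basophils and mast cells carry the high-affinity IgE receptor, whose crosslinking releases histamine and proteases stored in granules and starts the synthesis of lipid mediators, cytokines and chemokines. Basophils leave the bone marrow mature and circulate, and mast cells mature in tissues under signals of the receptor KIT. In the mouse, Mcpt8 and Prss34 encode proteases of basophils, Cma1, Mcpt4, Tpsb2 and Cpa3 encode chymases, a tryptase and a carboxypeptidase of connective tissue mast cells, and Mcpt1 and Mcpt2 encode chymases of mucosal mast cells. Ms4a2 encodes the β chain of the IgE receptor, and Gata2 encodes a transcription factor that both cell types share with hematopoietic progenitors.

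Many of the genes that told the members apart encode proteases, most of which lie in a pair of gene clusters. In mm10, the cluster on chromosome 14 runs from 55941451 to 56262260 over 321 kb and holds, in this order, Cma1, Cma2, Mcpt1, Mcpt9, Mcpt2, Mcpt4, Mcpt8, Ctsg, Gzmc and Gzmb. The cluster on chromosome 17 runs from 25298394 to 25369098 over 70.7 kb and holds Prss34, Tpsab1 and Tpsb2. Cpa3 lies at chr3:20215620-20242181, Ms4a2 at chr19:11615523-11623719 and Gata2 at chr6:88193891-88207032. To show what stands in front of rule genes and of proteases whose levels differed between kinds of members, the 250 bases before the RefSeq start site are printed 5′ to 3′ on the gene's strand (GRCm38.p6, the assembly behind mm10). Capitals mark AGATAA or TGATAA on either strand, the core letters of a GATA motif. A window of this length held such letters at 16.6% of 32817 promoters, and 2 or more copies at 2.72%.

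Cma1 lies on the minus strand, with its window at chr14:55944676-55944925, Mcpt4 on the minus strand at chr14:56062311-56062560, Mcpt8 on the minus strand at chr14:56085198-56085447, Prss34 on the plus strand at chr17:25298144-25298393, Cpa3 on the minus strand at chr3:20242182-20242431 and Ms4a2 on the minus strand at chr19:11623720-11623969.
Cma1: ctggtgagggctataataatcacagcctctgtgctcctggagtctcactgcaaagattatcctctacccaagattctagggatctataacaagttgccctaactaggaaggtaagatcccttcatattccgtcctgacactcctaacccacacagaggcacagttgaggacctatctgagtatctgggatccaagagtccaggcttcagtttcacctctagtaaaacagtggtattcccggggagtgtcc
Mcpt4: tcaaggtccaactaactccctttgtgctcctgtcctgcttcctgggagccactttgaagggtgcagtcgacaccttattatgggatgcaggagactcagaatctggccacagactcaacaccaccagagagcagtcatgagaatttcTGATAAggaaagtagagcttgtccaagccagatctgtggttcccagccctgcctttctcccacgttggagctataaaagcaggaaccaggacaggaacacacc
Mcpt8: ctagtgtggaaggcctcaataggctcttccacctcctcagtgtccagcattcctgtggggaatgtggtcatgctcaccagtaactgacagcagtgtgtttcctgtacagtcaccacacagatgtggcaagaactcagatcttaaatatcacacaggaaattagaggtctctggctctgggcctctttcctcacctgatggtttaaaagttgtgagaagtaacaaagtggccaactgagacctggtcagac
Prss34: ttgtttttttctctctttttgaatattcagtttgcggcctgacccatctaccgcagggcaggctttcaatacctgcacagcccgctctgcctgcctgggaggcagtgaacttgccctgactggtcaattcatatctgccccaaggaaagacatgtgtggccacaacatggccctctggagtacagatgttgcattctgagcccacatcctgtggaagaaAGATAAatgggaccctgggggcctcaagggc
Cpa3: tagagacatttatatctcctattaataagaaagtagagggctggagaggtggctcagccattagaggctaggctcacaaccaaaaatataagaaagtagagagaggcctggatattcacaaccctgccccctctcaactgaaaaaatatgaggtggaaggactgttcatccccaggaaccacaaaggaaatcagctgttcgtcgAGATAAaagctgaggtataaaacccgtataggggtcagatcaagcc
Ms4a2: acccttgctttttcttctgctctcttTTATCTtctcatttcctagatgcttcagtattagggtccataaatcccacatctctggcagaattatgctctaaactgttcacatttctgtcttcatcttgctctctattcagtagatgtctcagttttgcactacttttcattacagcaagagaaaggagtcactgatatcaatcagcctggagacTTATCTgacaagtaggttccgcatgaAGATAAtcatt

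The windows of Cma1 and Mcpt8 held no match. Mcpt4, Prss34 and Cpa3 held 1 match each, which began 103, 31 and 46 bases before the start site. Ms4a2 held 3, at 224, 37 and 11 bases. A match is a description of the letters and no evidence that a factor binds there, and the absence of a match says nothing about the factor.

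The lenvatinib library held 98107503 UMIs in 14509 barcodes and the combo library 93583402 UMIs in 11989 barcodes. Kept cells had medians of 5541 and 5754 UMIs. No member barcode occurred in both libraries. The members differed in depth: the lenvatinib members had a median of 4779 UMIs (502 to 34490) and the combo members one of 25563 (4622 to 41501). Kept cells with at least 20000 UMIs numbered 412 under lenvatinib and 602 under combo, and 3 and 22 of them were members. Kept cells below 5000 UMIs numbered 6343 and 4910, and 21 and 1 of them were members. A rule that asks for a fixed number of UMIs is met more easily by a deep cell. The count of members is therefore given below with and without thinning to an equal depth. Scrublet called 2 of the combo members and none of the lenvatinib members doublets.

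In the lenvatinib library members made up 0.275% of kept cells, with an interval of 0.195% to 0.375%. In the combo library they made up 0.250%, with an interval of 0.167% to 0.358%. The ratio of combo to lenvatinib was 0.909 (0.542 to 1.51), and the interval holds 1. The cells in neither gate that held at least 10 UMIs from at least 2 progenitor genes were then left out. This left 35 members under lenvatinib and 11 under combo, or 0.246% and 0.0947% of kept cells. The ratio was 0.384 (0.176 to 0.774). When every kept cell was thinned to 2000 UMIs before the rule was applied, 33 of 12173 cells met it under lenvatinib and 13 of 10866 under combo, a ratio of 0.441.

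For description the members were divided into 6 sets, and all their limits other than the mast and basophil gates were chosen after the members' values had been seen. The mast gate asked for at least 3 UMIs from at least 2 of Kit, Cma1, Mcpt4, Tpsb2 and Tpsab1, and more of these than of Mcpt8, Prss34 and Cd200r3. The basophil gate asked the same of Mcpt8, Prss34 and Cd200r3, and was divided at 10 UMIs of Prss34 into Prss34-high and Prss34-low cells. Of the cells in neither gate, those with at least 10 UMIs from at least 2 of Cd34, Mpo, Elane, Flt3, Meis1, Cdk6 and Hoxa9 are called Cd34/Mpo/Cdk6 cells. Cells with Cd200r3 and Cyp11a1 and no Mcpt8 formed the next set, and the others are the remaining cells.

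**Figure D1:**
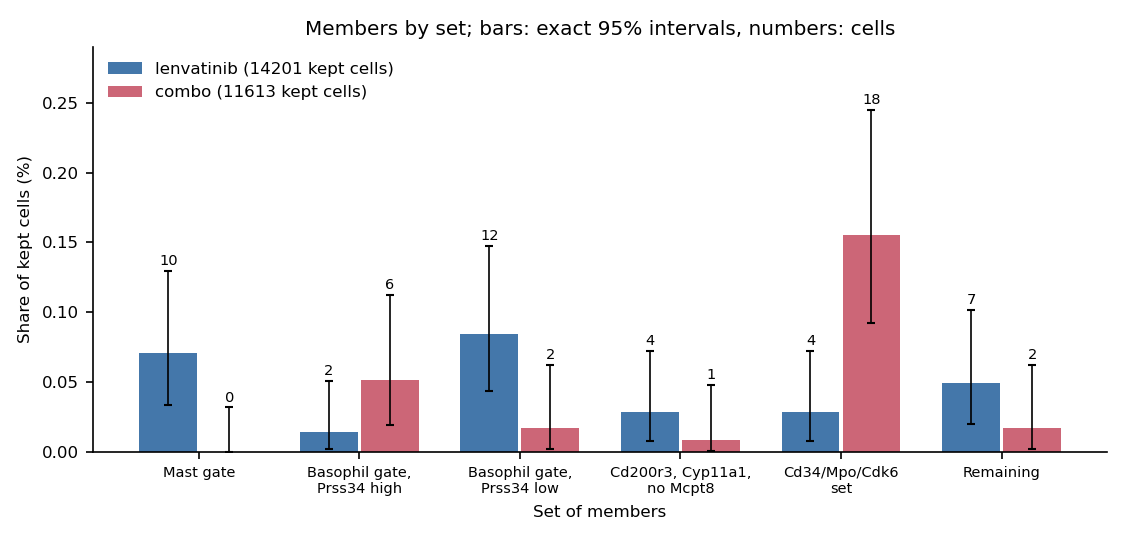
Share of kept cells (%) in each of the 6 sets of members under lenvatinib and combo, with exact 95% intervals and the number of cells. Mast-gate cells numbered 10 and 0 and Cd34/Mpo/Cdk6 cells 4 and 18, while Prss34-low cells numbered 12 and 2.

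Mast-gate cells were 25.6% of the lenvatinib members (13.0% to 42.1%) and 0 of the 29 combo members, with an exact upper limit of 11.9% (a floor of 3 counts gives 10.3%). Prss34-high cells numbered 2 under lenvatinib and 6 under combo, or 0.0141% and 0.0517% of kept cells, a ratio of 3.67 (0.656 to 37.2). Prss34-low cells numbered 12 and 2, a ratio of 0.204 among kept cells (0.0222 to 0.915). Cells with Cd200r3 and Cyp11a1 but no Mcpt8 numbered 4 and 1. Cd34/Mpo/Cdk6 cells numbered 4 and 18, or 10.3% and 62.1% of members, a ratio of 5.50 among kept cells (1.81 to 22.4). The remaining cells numbered 7 and 2. The limits of these sets were set on these same cells, so the ratios are a description. The 2 called doublets were a Prss34-low cell and the Mcpt8-free cell of the combo library. The Cd34/Mpo/Cdk6 set asks for 10 UMIs, which deep cells reach more easily. Among the cells that met the rule after thinning to 2000 UMIs, this set held 0 of 33 under lenvatinib and 5 of 13 under combo, mast-gate cells numbered 9 and 0, and Prss34-high cells 3 and 6. The genes of the set and Kit made up at most 0.288% of UMIs in its combo cells, too few for 10 of 2000 in most. The sets of thinned cells thus rest on counts before thinning, and the limit of 10 UMIs still favored deep cells here.

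**Figure D2:**
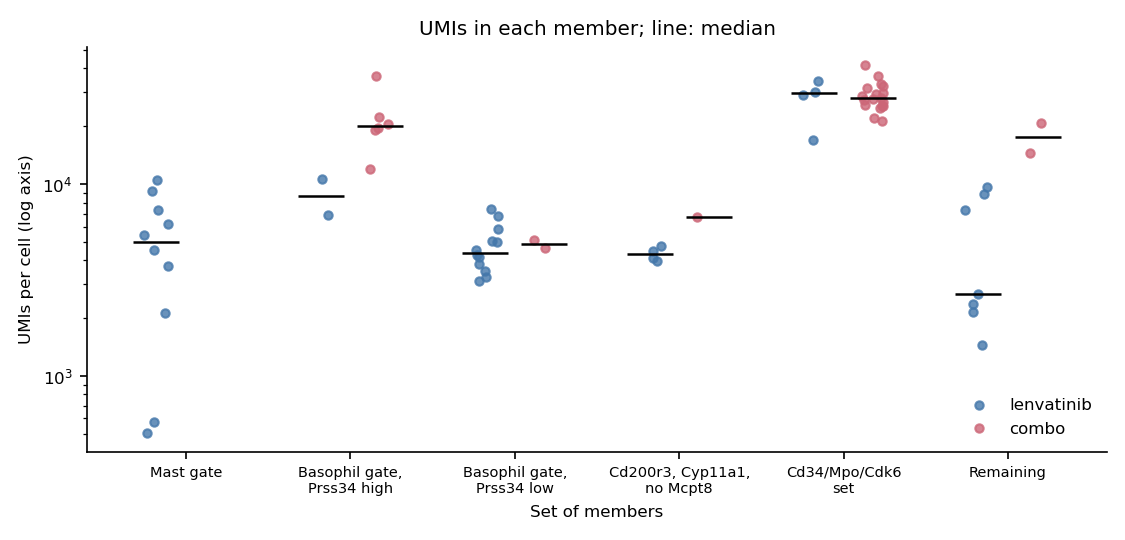
UMIs per cell (log axis) of each member by set and library, with a line at the median. Cd34/Mpo/Cdk6 cells held 17002 to 41501 UMIs and Prss34-low cells 3111 to 7435, with no overlap between these sets.

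The 10 mast-gate cells, all under lenvatinib, held 502 to 10493 UMIs. Cma1 (chymase) was present at 4 to 633 UMIs per cell with a median of 173, Mcpt4 (a chymase) at 1 to 535 with a median of 211, and Tpsb2 (a tryptase) at 3 to 338 with a median of 76.5. Mcpt8 and Prss34, the basophil proteases, were at 0 in all 10. The set fell into 7 strong cells and 3 weak ones. The strong cells held 3755 to 10493 UMIs, with Cma1 at 154 to 633, Mcpt4 at 132 to 535 and Cpa3 at 79 to 433. Of the weak cells, 1 of 502 UMIs held 12, 11 and 5 UMIs of Cma1, Mcpt4 and Tpsb2, 1 of 576 UMIs held 13, 11 and 7, and 1 of 2132 UMIs held 4, 1 and 3 beside 316 UMIs of S100a8, a neutrophil gene.

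The mast-gate cells also carried further genes of connective tissue mast cells. Fcer1a, the α chain of the IgE receptor, was present in 9 of 10 at up to 70 UMIs and stood at 4696 CPM (counts of a gene scaled to a total of 1000000) in the set, against 0.928 CPM in kept cells outside the members. Mrgprb1 stood at 2538 CPM and was present in 9 of 10, and Mrgprb2, the receptor through which peptides and drugs release mast cell granules, at 639.5 CPM. Kit was present in 9 of 10 at up to 19 UMIs. Il1rl1, the receptor of the alarmin IL-33, was present in 8 of 10 at up to 28 UMIs, and Slc6a4, the serotonin transporter, stood at 639.5 CPM. The chemokine genes of these cells were Ccl7 at 2798 CPM and Ccl2 at 2258 CPM, both of which attract monocytes, while Ccl3 was at 0 in all 10. Mcpt2, the mucosal chymase, reached 23 to 26 UMIs in 3 of the cells.

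Outside the members too, Mcpt4 and Tpsb2 were at 0 in the combo library and Cma1 was low. Mcpt4 and Tpsb2 had 0 UMIs among the 90165246 UMIs of kept combo cells, against 2642 and 1420 among 95123833 under lenvatinib. Cma1 had 220 UMIs in 137 kept combo cells, with at most 11 in a cell, and none of these cells was a member. Under lenvatinib it had 2928 UMIs in 370 cells, with 74.1% of them in members. Kept cells with at least 3 UMIs from at least 2 of Cma1, Mcpt4 and Tpsb2 numbered 35 under lenvatinib and 0 under combo, and 10 of the 35 were members. Of the 9 cells with at least 100 such UMIs, 7 were members. The other 2 missed the rule, a cell of 4423 UMIs with 435 mast cell protease UMIs through 3 UMIs of Cd3e and a cell of 1835 UMIs with 193 through Cpa3 being its only rule gene. The further 23 cells held 3 to 44 such UMIs with a median of 13.

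The 8 Prss34-high cells held at least 80 UMIs of Prss34 each, and the 14 Prss34-low cells held 0 or 1, with no cell between. The 6 combo cells held 95 to 488 UMIs of Mcpt8 with a median of 236 and 80 to 489 of Prss34 with a median of 253, in cells of 11985 to 36530 UMIs. The 2 lenvatinib cells held 157 and 155 UMIs of Mcpt8 and 255 and 163 of Prss34, in cells of 6851 and 10558 UMIs. The ranges of the libraries overlapped. Ctsg (cathepsin G), Cd200r3 (an activating receptor of basophils) and Cyp11a1 (the enzyme that begins steroid synthesis) were present in all 8. Cpa3 was present at 28 and 27 UMIs under lenvatinib and at 20 to 202 under combo.

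Genes of primary granules, made early in granulocyte maturation, were at higher CPM in the combo Prss34-high cells, with overlap between single cells. Ctsg was at 8 and 14 UMIs under lenvatinib and at 9 to 182 under combo with a median of 84.5, or 1264 and 4010 CPM, a ratio of 3.17 (2.07 to 5.11). Mpo (myeloperoxidase) was at 2 UMIs in each lenvatinib cell, and at 0, 15, 16, 22, 29 and 225 in the combo cells, a ratio of 10.3 in CPM (3.97 to 37.9). The combo cell with 225 UMIs of Mpo was also the deepest, at 36530 UMIs, and carried 102 UMIs of Elane (neutrophil elastase), 116 of Prtn3 (proteinase 3), 10 of Mki67 and 27 of Top2a, genes of dividing cells. Without it the Mpo ratio was 3.81. Fcer1a went the same way, with 1 and 0 UMIs under lenvatinib and 7 to 96 under combo. Its 24.3-fold ratio rests on 1 lenvatinib UMI (4.31 to 967). Per UMI, Mcpt8 and Prss34 themselves were lower under combo, at ratios of 0.661 (0.585 to 0.749) and 0.508 (0.456 to 0.568), and Cpa3 was at 1.16 (0.880 to 1.57). With each cell left out in turn, the ratio for Prss34 lay between 0.328 and 0.791. These ratios compare 2 cells with 6 and were read from cells chosen for Prss34.

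The 14 Prss34-low cells were smaller in UMIs and rich in chemokine genes. The 12 lenvatinib cells held 3111 to 7435 UMIs, and the 2 combo cells 4622 and 5117. Mcpt8 was at 1 to 23 UMIs under lenvatinib with a median of 3, and at 6 and 23 in the combo cells. Cd200r3 was present in all 14 at 2 to 10 UMIs and Cyp11a1 in all 14 at 1 to 12, and Kit was at 0 in all 14. Ccl3, an inflammatory chemokine, was at 12 to 160 UMIs under lenvatinib with a median of 93.5, and at 18 and 134 under combo. Its neighbor Ccl4 was at 18 to 284 with a median of 96 and at 56 and 116. The combo cells lay within the lenvatinib range for these genes except Cyp11a1, which was at 1 and 6 UMIs in them and at 4 to 12 under lenvatinib.

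The Prss34-low cells further carried Il6 in 13 of 14 cells at up to 11 UMIs, Osm (oncostatin M, a cytokine of the IL-6 family) in all 14 at 1 to 37 UMIs, Hgf (hepatocyte growth factor) in 12 of 14 and Alox15, a lipoxygenase, in 10 of 14. The 5 cells with Cd200r3 and Cyp11a1 but no Mcpt8 were alike in these genes. They held 3961 to 6718 UMIs, with Ccl3 at 76 to 130 UMIs under lenvatinib and 178 in the combo cell, and Ccl4 at 102 to 318 and 223. As a set they stood at 25238 CPM of Ccl3, 1245 CPM of Cyp11a1, 830 CPM of Cd200r3 and 1079 CPM of Il6. The absence of Mcpt8 UMIs at this depth does not show that the gene was off.

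Immediate early genes, which stimulated or stressed cells switch on within minutes, were high in the same cells. The 15 genes of this list made up a median of 7.01% of the UMIs of the lenvatinib Prss34-low cells (2.19% to 10.6%) and 7.13% of those of the lenvatinib cells with Cd200r3 and Cyp11a1 but no Mcpt8 (5.02% to 11.2%). Under combo the 2 Prss34-low cells stood at 3.22% and 6.02% and the Mcpt8-free cell at 6.79%, within the lenvatinib ranges. The medians were 0.69% in mast-gate cells, 0.92% in the lenvatinib Prss34-high cells, and 0.49% and 0.56% in the Cd34/Mpo/Cdk6 cells. Combo Prss34-high cells lay between 0.81% and 2.57%. The remaining cells had medians of 2.81% under lenvatinib and 0.53% under combo. The 29 cytokine and chemokine genes followed, at a median of 5.67% in the lenvatinib Prss34-low cells (2.83% to 9.52%). In the lenvatinib Mcpt8-free cells the median was 6.99% (5.94% to 12.4%). The combo Prss34-low cells stood at 3.31% and 6.55% and the combo Mcpt8-free cell at 7.86%, again within the lenvatinib ranges. Medians were lower in mast-gate cells, at 0.30%, and in Prss34-high cells of both libraries. The latter were 1.03% under lenvatinib (0.13% to 1.93%) and 0.39% under combo (0.23% to 3.40%). Egr1 alone was at 0 to 60 UMIs in the lenvatinib Prss34-low cells with a median of 42. In the combo Prss34-low cells it was at 10 and 13, within that range. The Mcpt8-free cells held 40 to 70 under lenvatinib and 45 under combo.

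**Figure D3:**
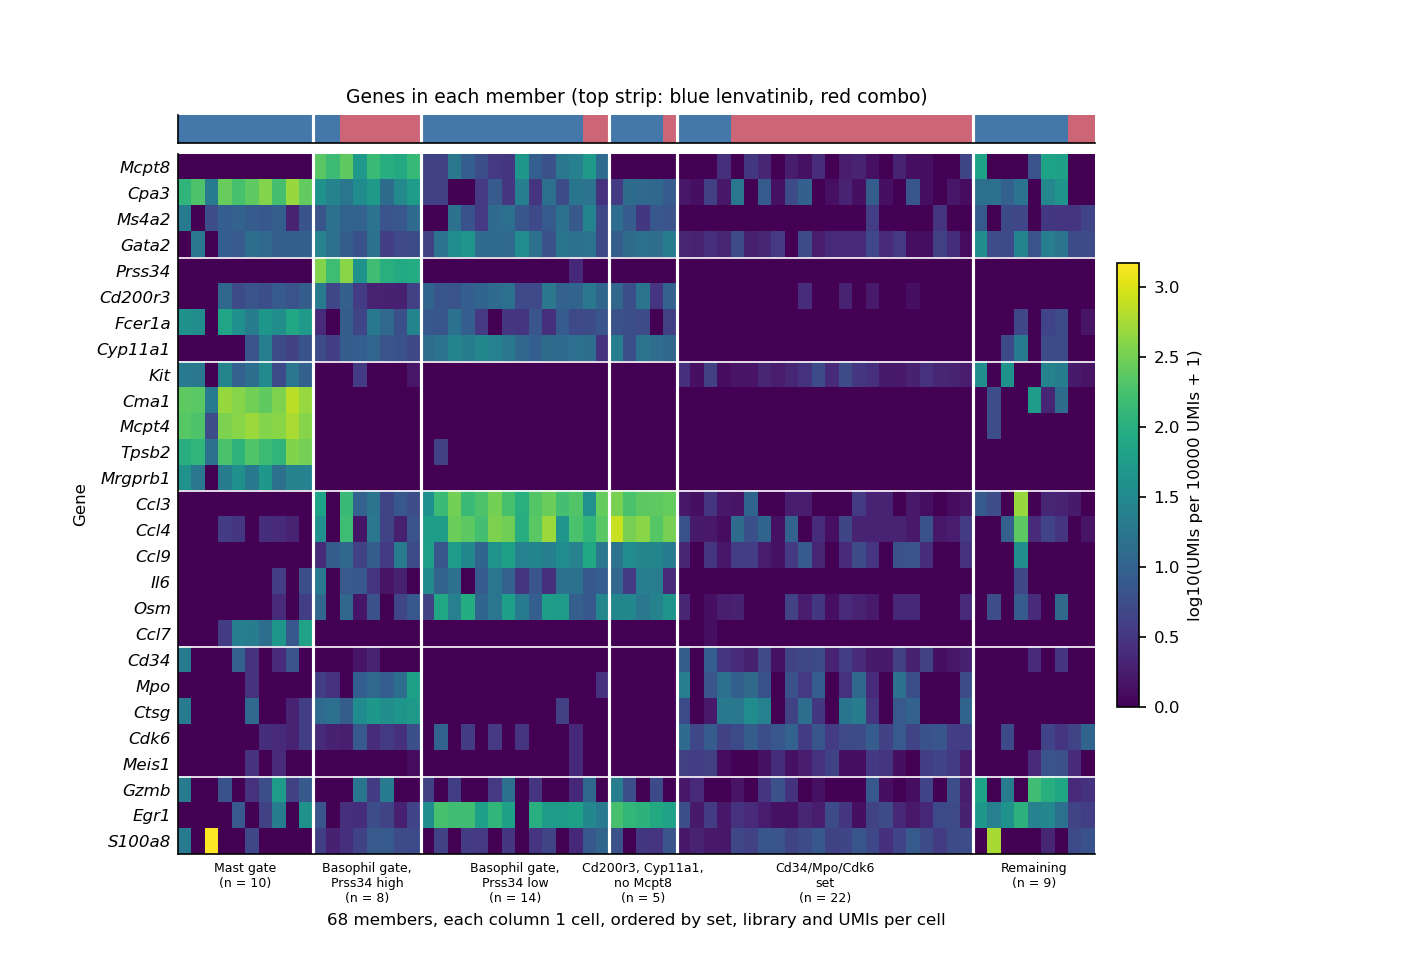
Level of 27 genes, as log10 of UMIs per 10000 UMIs plus 1, in each of the 68 members, with columns ordered by set, library and UMIs and a strip that is blue for lenvatinib and red for combo. Mast cell proteases fill the 10 mast-gate cells, Mcpt8 and Prss34 the 8 Prss34-high cells, Ccl3 and Ccl4 the 14 Prss34-low cells and the 5 cells beside them, and Cd34, Cdk6 and Meis1 the 22 Cd34/Mpo/Cdk6 cells.

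The 22 Cd34/Mpo/Cdk6 cells held 3 to 14 UMIs of the 4 rule genes under lenvatinib, with a median of 8, and 3 to 44 under combo, with a median of 9.5. The Prss34-low cells of the lenvatinib library held 3 to 54, with a median of 16. In the Cd34/Mpo/Cdk6 cells Gata2 was at 2 to 5 UMIs in the 4 lenvatinib cells and at 0 to 11 in the 18 combo cells with a median of 4. Cpa3 was at 1 to 9 UMIs under lenvatinib and at 0 to 35 under combo with a median of 1, and Mcpt8 was present in 1 of 4 and 12 of 18 cells at up to 15 UMIs. Ms4a2 was at 0 in all 4 lenvatinib cells and present in 2 of 18 combo cells. Fcer1a, Cyp11a1, Prss34 and Il6 were at 0 in all 22. Other genes of basophils were present in the combo cells, with 10 UMIs of Cd200r3, 60 of Hdc (the enzyme that makes histamine) and 109 of Ccl9. In the lenvatinib cells these stood at 0, 1 and 10 UMIs. A combo cell of 28705 UMIs held 22 UMIs of Cpa3, 11 of Gata2, 8 of Ms4a2, 2 of Cd200r3 and 12 of Hdc. The markers thus went both ways, and these cells are not named basophils or mast cells here.

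What the Cd34/Mpo/Cdk6 cells shared beyond the genes that chose them was Kit, the receptor of stem cell factor, in 22 of 22 cells at 1 to 12 UMIs, Prtn3 in 21 of 22, Muc13 (a mucin) and Adgrg1 (an adhesion receptor) in 22 of 22, Angpt1 (the ligand of the receptor TIE2) in 21 of 22 and Slc22a3 (a cation transporter) in 17 of 22. Of the choosing genes, Cd34 was present in 21 of 22 at up to 24 UMIs, Cdk6 in 22 of 22 at 7 to 23, Meis1 in 19 of 22 and Mpo in 15 of 22. Cdk6 was at 11 to 22 UMIs under lenvatinib and at 7 to 23 under combo, and the ranges overlapped. Beyond the members, kept cells that held both Cd34 and Meis1 with at least 3 UMIs together numbered 11 under lenvatinib and 117 under combo, or 0.0775% and 1.01%, and 4 and 15 of these were members. These cells were not counted at equal depth, and kept cells with at least 20000 UMIs numbered 412 and 602.

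Within the Cd34/Mpo/Cdk6 cells, Cdk6 stood at 578 CPM under lenvatinib and 482 CPM under combo, a ratio of 0.835 (0.632 to 1.12), and Cdk4 at 226 and 291 CPM, a ratio of 1.29 (0.842 to 2.06). Cdk6 is among the genes that chose these cells, so its values are a description. Cdkn1a, the CDK inhibitor p21, was higher under combo, at 117 and 284 CPM with a ratio of 2.42 (1.37 to 4.65). Of genes of dividing cells, Top2a, which untangles DNA before division, stood at 515 and 210 CPM, a ratio of 0.409 (0.294 to 0.573), and Mki67, a marker of cycling cells, at 280 and 162 CPM, a ratio of 0.579 (0.380 to 0.905). A single lenvatinib cell of 29035 UMIs, with Cd34 and Mpo at 0, held 30 of the 57 Top2a UMIs and 15 of the 31 Mki67 UMIs under lenvatinib. Without it the ratios were 0.637 and 0.828. With each cell of the set left out in turn, the ratio lay between 0.327 and 0.637 for Top2a, 0.399 and 0.828 for Mki67, 1.02 and 1.71 for Cdk4, and 2.25 and 2.66 for Cdkn1a. Per cell, the 10 mitosis genes made up a median of 0.20% of UMIs in the lenvatinib cells (0.08% to 0.30%). In the combo cells the median was 0.02% (0% to 0.25%), and the ranges overlapped. The lenvatinib side of each of these values is 4 cells.

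The 9 remaining cells were mixed. Under lenvatinib 3 of the 7 carried Mcpt8 at 10, 60 and 62 UMIs together with Kit at 5, 22 and 20 and Gzmb (granzyme B) at 10, 87 and 69, with no Prss34. A further lenvatinib cell held 40 UMIs of Cma1, 116 of Gzmb and 4 of Mcpt8 but no Mcpt4, and another held 124 UMIs of S100a8 and 118 of S100a9, both neutrophil genes. The last 2 lenvatinib cells held 10 UMIs of Kit with no Mcpt8, and 127 UMIs of Ccl3 and 5 of Cyp11a1 with no Cd200r3. As a set the 9 stood at 4197 CPM of Gzmb, and 77.4% of the Gzmb UMIs of all lenvatinib members lay in them. The 2 combo cells held 3 and 7 UMIs of Ms4a2, 6 and 9 of Gata2, and 10 and 14 of Mki67, with Cd34 and Mpo at 0. Of the other progenitor genes, they held 5 and 20 UMIs of Cdk6 and 2 and 0 of Meis1.

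**Figure D4:**
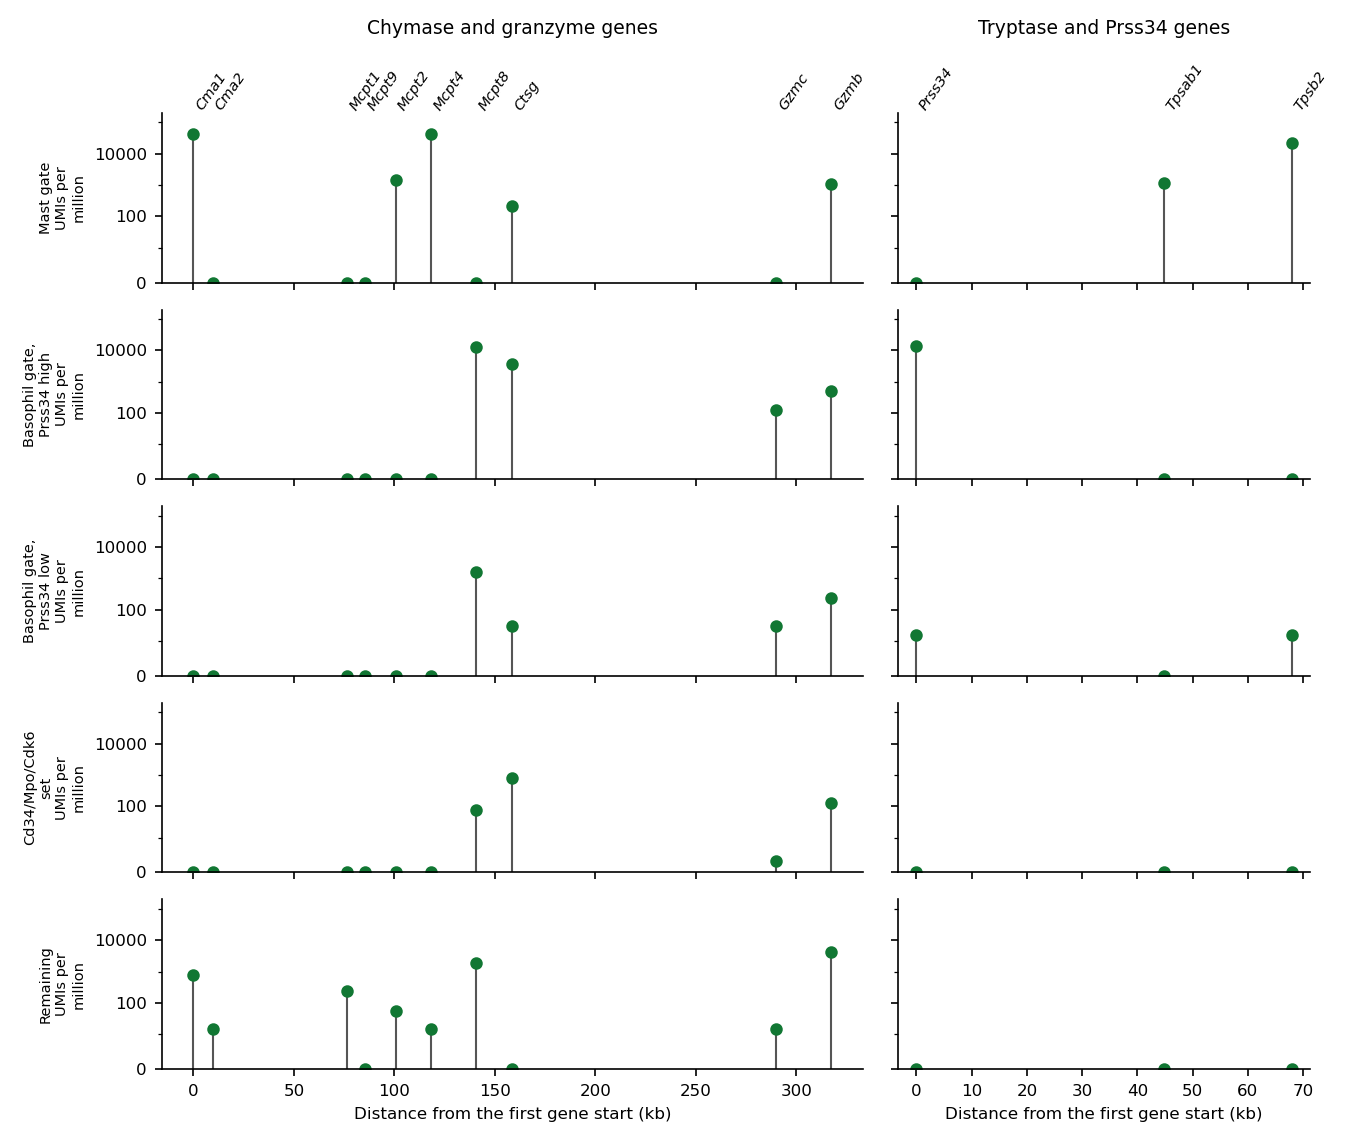
Level of each protease gene (CPM) by set against the distance of the gene (kb) from the first gene of its cluster. The chymase and granzyme cluster and the tryptase and Prss34 cluster are shown. The set with Cd200r3 and Cyp11a1 but no Mcpt8 is not drawn. Neighboring genes differed by set, with Mcpt4 high in mast-gate cells and Mcpt8 and Ctsg high in Prss34-high cells.

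Along the chromosome 14 cluster, expression changed between neighbors. Cma1 at 0 kb and Mcpt4 at 118 kb stood at 42266 and 41846 CPM in mast-gate cells and at 0 UMIs in Prss34-high, Prss34-low and Cd34/Mpo/Cdk6 cells. Mcpt8 at 141 kb stood at 0 UMIs in mast-gate cells, 12562 CPM in Prss34-high cells, 1551 CPM in Prss34-low cells and 74.7 CPM in Cd34/Mpo/Cdk6 cells. Ctsg at 158 kb stood at 220 CPM in mast-gate cells, 3686 CPM in Prss34-high cells, 30.1 CPM in Prss34-low cells and 774 CPM in Cd34/Mpo/Cdk6 cells. Gzmb at 317 kb, a protease of cytotoxic lymphocytes, was above 0 in all 6 sets and highest in the remaining cells. On chromosome 17, Prss34 was at 13599 CPM in Prss34-high cells and Tpsb2, 67.9 kb away, at 21882 CPM in mast-gate cells. Tpsb2 and Tpsab1, and the genes of the Mcpt family, are close in sequence, so reads of near-identical stretches may have been dropped or counted on either gene.

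Kept cells outside the members gave the background of each gene, and the fold over them is a description because the rule chose the members on genes of the same cells. Among the 2317 genes with at least 50 CPM and 10 UMIs in the members of each library, and outside the 4 rule genes, Prss34 had the highest level relative to other kept cells, at 2389-fold under lenvatinib and 3030-fold under combo. Cyp11a1 followed at 1116-fold and 467-fold, Fcer1a at 889-fold and 357-fold, and Cd200r3 at 679-fold and 339-fold. Slc18a2, which loads histamine into granules, stood at 84.6-fold and 37.4-fold, Hgf at 107-fold and 24.5-fold and Cd63, a granule membrane protein, at 35.8-fold and 14.7-fold. Of genes made early in myeloid cells, Mpo stood at 14.6-fold and 43.0-fold and Ctsg at 41.0-fold and 78.8-fold, while Cd34 stood at 241-fold and 15.9-fold. Mast cell genes at 0 UMIs in combo members could not be ranked this way, such as Mcpt4 and Mrgprb1 at 1266-fold and 1312-fold under lenvatinib.

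Members did not account for all UMIs of their own genes. Of the UMIs of Mcpt8 in kept cells, 61.9% lay in members under lenvatinib and 90.2% under combo. For Cpa3 the shares were 78.9% and 66.8%, for Ms4a2 78.7% and 66.4%, for Gata2 73.7% and 45.9%, and for Prss34 87.8% and 96.0%. Hdc, the enzyme that makes histamine, was also found outside the members. It stood at 1391 CPM in lenvatinib members and 1375 CPM in cells of a neutrophil gate (Csf3r, Cxcr2, Mmp9, Il1r2), and at 257 and 741 CPM under combo. Ccl3 stood at 6004 CPM in lenvatinib members, 1727 CPM in the neutrophil gate, 615 CPM in an NK cell gate and 79.1 CPM in a T cell gate. In the combo library Ccl3 was at 890 CPM in members, and at 330 CPM in the neutrophil gate, 505 CPM in the NK gate and 117 CPM in the T gate. The 29 cytokine and chemokine genes together stood at 19925 CPM in lenvatinib members and were above other kept cells, at 2750 CPM. Combo members as a whole were below, at 4091 CPM against 6113. Among them the Cd34/Mpo/Cdk6 cells stood at 1866 CPM and the remaining cells at 623 CPM. The combo Prss34-high, Prss34-low and Mcpt8-free cells were above other kept cells, at 6607, 50108 and 78595 CPM.

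Ptprc, which encodes the CD45 used for sorting, was present in 32 of 39 and 27 of 29 members, at 359 and 149.9 CPM against 1771 and 1055 CPM in other kept cells. Markers of other cell types were mostly low in the members. T cell markers held 36 and 42 UMIs in lenvatinib and combo members, or 126 and 60.0 CPM against 1901 and 1541 CPM in other kept cells. NK cell markers held 14 and 26 UMIs, or 48.8 and 37.1 CPM against 1193 and 570. Of 8 eosinophil genes, 3 had a UMI in members, with 11 and 25 UMIs in all. Neutrophil markers were the exception, at 956 and 882 UMIs, or 3333 and 1260 CPM against 7711 and 65112 CPM in other kept cells, and 2 lenvatinib members held 886 of the 956 UMIs. In these cells, of 2132 and 2156 UMIs, neutrophil markers made up 29.1% and 12.3%, and without them the lenvatinib members stood at 248 CPM. The median member held 0.0263% under lenvatinib and 0.132% under combo. The part of free RNA from neutrophils in these values was not tested.

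To compare shares of cells with a UMI at equal depth, each cell was thinned to 2000 UMIs, which left 36 of 39 lenvatinib members and all 29 combo members. Cells of the T cell gate (Cd3d, Cd3e, Cd3g, Trac), with medians of 5706.5 and 5242 UMIs before thinning, served as the background. Cpa3 was detected in 77.8% of lenvatinib and 48.3% of combo members after thinning (92.3% and 79.3% before), against 0.370% and 0.136% of T cells. Gata2 was detected in 83.3% and 48.3% (94.9% and 96.6% before), against 0.0740% and 0.182%. Mcpt8 was detected in 44.4% and 34.5%, and here the shares before thinning ran the other way, at 48.7% and 69.0%, against 0.222% and 0.136% in T cells. Outside the rule, Cyp11a1 was detected in 61.1% and 20.7% (69.2% and 31.0% before), Il6 in 41.7% and 13.8%, Ctsg in 19.4% and 58.6% and Mpo in 2.78% and 48.3% (15.4% and 62.1% before). T cells held Cyp11a1 in 0.0926% and 0.0682%, Il6 in 0.0370% and 0.0455%, Ctsg in 0.148% and 0.523% and Mpo in 1.43% and 1.09%, so Mpo in thinned lenvatinib members lay near the background. Ccl3 was detected in 55.6% and 34.5% of members and in 11.4% and 13.5% of T cells. Kit was detected in 27.8% and 6.90% after thinning and in 43.6% and 75.9% before, and no order is read from it.

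UMIs were then summed over the members of each library, 286824 under lenvatinib and 700278 under combo. The 18 Cd34/Mpo/Cdk6 cells held 518348 of the combo UMIs, so a sum over combo members is in large part a sum over these cells. Of 3556 genes with at least 50 CPM in a library and 20 UMIs over both, 301 (8.46%) were at least 2-fold higher under combo and 547 (15.4%) at least 2-fold lower. Mitochondrial, ribosomal and hemoglobin genes took 23.5% of the lenvatinib and 33.5% of the combo UMIs. When they were left out of the total, the median log2 ratio of the 3556 genes moved from -0.01 to 0.20, and 521 of them were higher and 434 lower. With the limits applied anew on that total, 4596 genes passed, 734 of them higher and 523 lower. Without the deepest member of each library, 508 of 3682 were higher and 639 lower. When each member was left out in turn, 4 of 19 genes that were 2-fold higher fell below that limit at least once. They were Ccnd1, Cdk4, Ifitm3 and Ifngr1. Of genes 2-fold lower, 14 of 80 were lost in this way, Nusap1 and S100a8 among them. These counts take genes with at least 20 UMIs and at least 1 in each library. They cover the list genes and also Prtn3, Selp, S100a4 and Ms4a3. The latter are in no list, count among the 19 and were not lost. List by list, counts are given beside this background, with the median log2 ratio of the genes that passed.

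**Figure D5:**
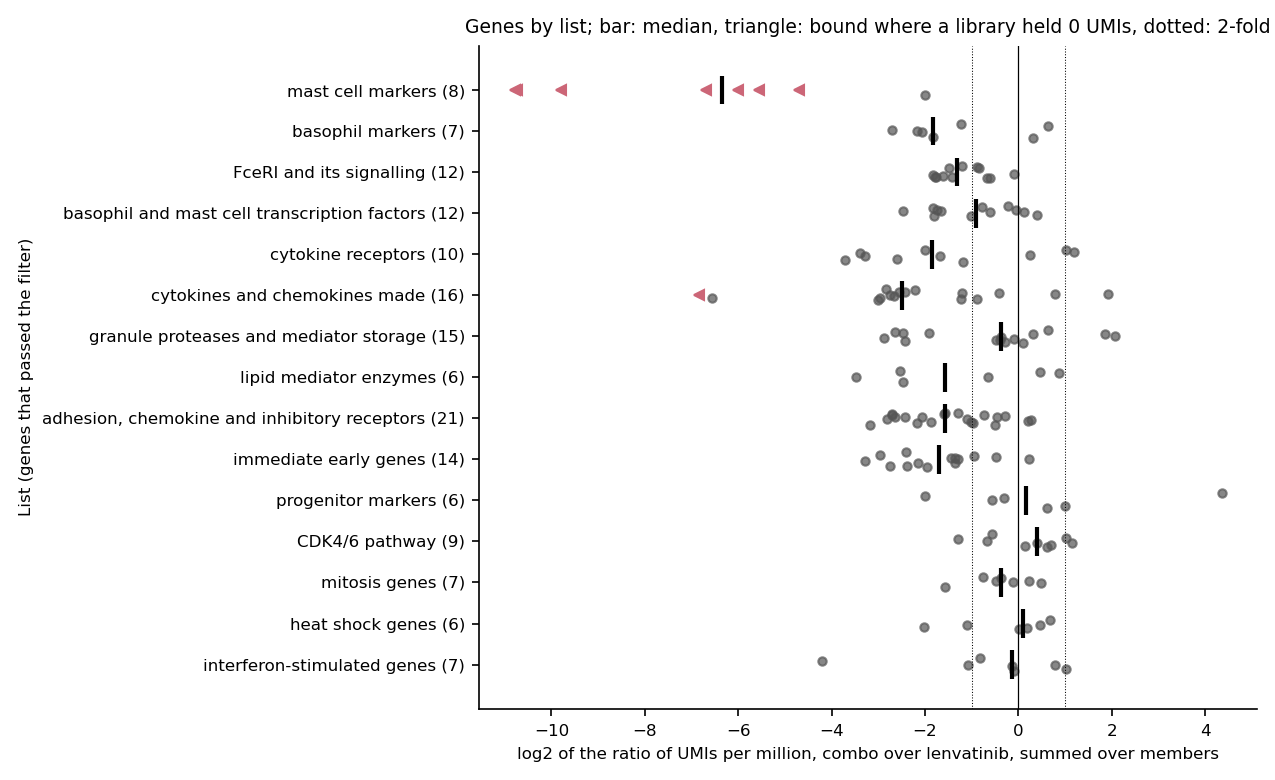
Log2 ratio of combo to lenvatinib in the sum over members for each gene that passed, by list, with a bar at the median, dotted lines at 2-fold and a triangle at the bound where a library held 0 UMIs. Cytokines, immediate early genes and adhesion receptors lie mostly below 0, all 8 mast cell markers lie below the lower dotted line, and CDK4/6 pathway genes lie on both sides of 0.

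Of the 4 rule genes, Mcpt8 stood at 1841 CPM under lenvatinib and 2302 CPM under combo, a ratio of 1.25 (1.13 to 1.38) that lay between 0.920 and 1.74 with each member left out in turn, Cpa3 at 5575 and 898 CPM, a ratio of 0.161 (0.147 to 0.177), Ms4a2 at 387 and 243 CPM and Gata2 at 906 and 288 CPM. Cpa3 came from different cells in the libraries, with 87.2% of its lenvatinib UMIs in mast-gate cells and 76.2% of its combo UMIs in Prss34-high cells. Mast cell markers had the lowest median log2 ratio of these lists, -6.35, with 8 of 9 passing and all 8 lower under combo. Cma1 had 2169 UMIs in 14 lenvatinib members and 0 under combo, at least 1765-fold lower against a floor of 3 UMIs. Mcpt4 had 2095 UMIs in 11 members and 0 under combo, and Tpsb2 had 1096 UMIs in 11 members and 0. Of 8 basophil markers 7 passed, 5 were lower and none was higher. Prss34 stood at 1461 and 2269 CPM, a ratio of 1.55 (1.39 to 1.73), or 1.09 to 3.87 with each member left out, and Cd200r3 at 394 and 87.1 CPM, a ratio of 0.221. The median log2 ratio of the basophil markers was -1.83 and became -0.70 without the Cd34/Mpo/Cdk6 cells, when 2 were higher and 2 lower.

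Genes of the IgE receptor and its signaling were lower in the sum over combo members. Of 15 genes 12 passed, 7 were lower and none was higher, with a median log2 ratio of -1.31. Fcer1a stood at 966 and 271 CPM, a ratio of 0.281. Its UMIs lay at 84.8% in mast-gate cells under lenvatinib and at 95.8% in Prss34-high cells under combo, and within the Prss34-high cells its level was higher under combo. Fcer1g, the γ chain, stood at 1405 and 525.5 CPM, a ratio of 0.374. Lat2, Btk and Gab2, which act downstream of the receptor, had ratios of 0.290, 0.328 and 0.296, whereas Syk, the kinase that binds the γ chain, was at 0.940 (0.621 to 1.45). Without the Cd34/Mpo/Cdk6 cells the median was -1.15 and 8 were lower. Of 16 transcription factors 12 passed, 6 were lower and none was higher. Stat5b, Tal1 and Irf8 were at 0.282, 0.300 and 0.181, and Spi1, which drives myeloid fate, was at 1.33 (0.945 to 1.90).

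Of 20 cytokine receptor genes 10 passed, 7 lower and 2 higher. Csf2rb, the chain shared by the receptors of IL-3, IL-5 and GM-CSF, stood at 404 and 126 CPM, a ratio of 0.311. Il1rl1 stood at 394 and 29.99 CPM, a ratio of 0.0761, and Il18r1 was at 0.102. The 2 that were higher were Crlf2, a chain of the TSLP receptor, at 2.30 (1.26 to 4.52) and Ifngr1, the interferon-γ receptor, at 2.02 (1.10 to 3.99). Receptors for chemokines, adhesion and inhibition followed, with 21 of 34 passing, 14 lower and none higher. Ccr1 was at 0.154, Lilrb4a, an inhibitory receptor, at 0.111, and Cd69, an early activation marker, stood at 1499 and 360 CPM, a ratio of 0.240.

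Cytokine and chemokine genes were lower in most cases, with 16 of 29 passing, 12 lower and 1 higher, and a median log2 ratio of -2.49. Ccl3 had 1722 UMIs in 26 lenvatinib members and 623 in 21 combo members, a ratio of 0.148 in CPM. Ccl4 had 2049 UMIs in 31 members and 791 in 27, a ratio of 0.158. The Prss34-low cells of the lenvatinib library held 64.2% of its Ccl3 UMIs and 58.3% of its Ccl4 UMIs. Il6 stood at 359 and 49.98 CPM, a ratio of 0.139, Csf1, the growth factor of macrophages, at 488 and 62.8 CPM, a ratio of 0.129, and Osm at 952 and 204 CPM, a ratio of 0.215. Ccl7 had 141 UMIs under lenvatinib, 99.3% of them in mast-gate cells, and 0 under combo, at least 115-fold lower. Tgfb1, at 1.72 (1.26 to 2.37), was among those that did not reach 2-fold, and Cxcl10 was the gene that was higher, at 3.79 (1.36 to 14.6).

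Immediate early genes gave the same picture, with 14 of 15 passing, 11 lower and none higher. Egr1 stood at 2998 and 306 CPM, a ratio of 0.102, and was detected in 72.2% and 51.7% of thinned members against 21.1% and 18.8% of T cells. Fos was at 0.191 and Dusp1 at 0.188, while Nr4a1 was at 1.18. Without the Cd34/Mpo/Cdk6 cells 10 were lower and none was higher, and the median log2 ratio was -1.64 against -1.70 with them. Lipid mediator enzymes had 6 of 11 passing, 3 lower and none higher. Alox5, the first enzyme of leukotriene synthesis, was at 0.172, and Ptgs2, the inducible prostaglandin synthase, was at 0.0892.

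Granule genes differed in both directions, with 15 of 17 passing, 5 lower and 2 higher. Ctsg had 106 UMIs in 10 lenvatinib members and 938 in 18 combo members, a ratio of 3.62 in CPM (2.96 to 4.47), and its combo UMIs lay at 55.7% in Prss34-high cells and at 44.3% in Cd34/Mpo/Cdk6 cells. Lyz2, lysozyme, was at 4.23 (2.61 to 7.30). Hdc stood at 1391 and 257 CPM, a ratio of 0.185, Gzmb at 1293 and 233 CPM, a ratio of 0.180, and Ndst2, which sulfates heparin, was at 0.137. Srgn, the granule proteoglycan serglycin, was at 0.765 and Serpinb1a, an inhibitor of granule proteases, at 1.06 (0.893 to 1.27).

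Progenitor genes were on balance near the background, with 6 of 8 passing, 1 higher and 1 lower. The 1 higher was Elane, at 3 UMIs in 2 lenvatinib members and 150 in 11 combo members, a ratio of 20.5 (6.87 to 100), and the 1 lower was Kit, at 488 and 123 CPM, a ratio of 0.252. Kit came from different cells. Its lenvatinib UMIs lay at 49.3% in mast-gate, 40.7% in remaining and 10% in Cd34/Mpo/Cdk6 cells. Under combo 89.5% lay in Cd34/Mpo/Cdk6 cells. Mpo stood at 373 and 741 CPM, a ratio of 1.99 (1.61 to 2.47), and Cd34 at 206 and 139 CPM, a ratio of 0.673. Of 16 genes of the CDK4/6 pathway, the target of palbociclib, 9 passed, 2 higher and 1 lower. Cdk4 stood at 122 and 247 CPM, a ratio of 2.02 (1.401 to 3.001), Ccnd1, its partner cyclin D1, was at 2.22 (0.981 to 5.90), and Rbl2, a relative of RB, was at 0.410. Cdk6 stood at 296 and 455.5 CPM, a ratio of 1.54 (1.21 to 1.98), beside 0.835 within the Cd34/Mpo/Cdk6 cells. The median log2 ratio of this list was 0.40 and turned to -0.24 without those cells.

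Mitosis genes had 7 of 10 passing, 1 lower and none higher, with Mki67 at 1.18 (0.820 to 1.73) and Nusap1, a spindle protein, at 0.336. The median log2 ratio was -0.38, and it turned to 0.45 with cells weighted equally and to 1.72, with 5 higher, without the Cd34/Mpo/Cdk6 cells. The last value rests on few combo cells. Mitosis genes held 71 UMIs in the 2 remaining combo cells, 74 in the 6 Prss34-high cells and 0 in the Prss34-low and Mcpt8-free cells. In the Prss34-high cells they made up a median of 0.005% of UMIs, with 0.19% in the highest cell. Interferon-stimulated genes had 7 of 15 passing, 1 higher and 2 lower, with Isg15 at 0.0546 and Ifitm3 at 2.02, and their median of -0.15 turned to 0.06 with mitochondrial, ribosomal and hemoglobin genes left out of the total. MHC class II genes had 4 of 8 passing, 2 higher and 2 lower, heat shock genes 6 of 7, none higher and 2 lower, and neutrophil markers 6 of 10, 2 higher and 2 lower. No direction is read for these 3 lists, since MHC class II genes had 2 higher and none lower with cells weighted equally, neutrophil markers 1 higher and 4 lower, and heat shock genes 1 and 1. Platelet and erythroid genes had 3 of 8 passing, 2 higher. Pf4, platelet factor 4, had 0 UMIs under lenvatinib and 99 in 6 combo members, at least 13.5-fold higher, and 94 of these UMIs lay in 1 cell. Without the Cd34/Mpo/Cdk6 cells none of the 3 was higher.

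Across all genes, the lowest ratios under combo were mostly those of genes of the mast-gate cells. Beside Cma1, Mcpt4, Tpsb2 and Ccl7, Mrgprb1 was at least 103-fold lower, Mcpt2 at least 64.3-fold and Tpsab1 at least 47.2-fold, all at 0 UMIs under combo. Ccl2 had 116 UMIs in 8 lenvatinib members and 3 in 1 combo member, a ratio of 0.0106 (0.00215 to 0.0317). The highest ratios rested on few lenvatinib UMIs. Selp, the adhesion receptor P-selectin, had 1 and 62 UMIs, a ratio of 25.4 (4.39 to 1019). S100a4, a calcium-binding protein of motile cells, had 16 and 266 UMIs, a ratio of 6.81 (4.12 to 12.1), and Ms4a3, a gene of granulocyte and monocyte progenitors, had 11 and 178 UMIs, a ratio of 6.63 (3.62 to 13.5).

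Cells close to the limits of the rule are described here with no test. Just inside, 2 lenvatinib members and 1 combo member held exactly 3 UMIs of the rule genes. Just outside, 1 cell of each library held 2 UMIs from 2 rule genes. Cells with at least 3 UMIs from a single rule gene numbered 17 under lenvatinib, with 12 holding Cma1 and a median of 1835 UMIs, and 19 under combo, with 17 holding Cd34 and a median of 21306 UMIs. The limits on Cd3 and Cd79a left out 9 and 10 further cells, and all 10 of the combo cells held Cd34. The limit of 6000 genes left out 3 and 12 that met the 4-gene part of the rule, and all 12 of the combo cells held Cd34.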

How the data were processed

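Live CD45+ cells were profiled with the 3′ v3 chemistry in 2 libraries. Raw UMI counts, aligned to mm10 and without normalization, were deposited by the authors. The submitters' processing notes name Cell Ranger 5.0.1 and the matrix header names 6.0.1. Barcodes with over 6000 genes or over 25% mitochondrial UMIs were removed (308 under lenvatinib, 376 under combo). Doublets (Scrublet, scanpy 1.11.5, 6% expected) were called and kept, and removed in an alternative. Counts were summed per library and set, divided by the total and given as CPM, with intervals from scipy 1.17.1. A gene passed with at least 50 CPM in 1 library and 20 UMIs over both. Named genes were the rule genes, up to 6 genes per list with the highest CPM and list members past 2-fold, the 20 highest over other kept cells, and the 10 largest and smallest ratios. The members and lists were chosen with earlier results of these data known, and the division at Prss34, the progenitor gene set and the Mcpt8-free set after seeing the data. The 2-fold calls and the intervals of ratios were tested on simulated gene totals without spread between cells. The rule, gates, thinning and doublet calls were not tested in this way. Gene positions came from GENCODE vM21 and promoter sequences from RefSeq.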

Additional observations from a re-analysis of the deposited data

How the results depend on the processing

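The ratio of combo to lenvatinib in the share of members among kept cells was 0.909 and lay between 0.671 and 1.06 under 7 alternatives (cell filter, mitochondrial limit, doublets, gate size, lineage limits, denominator). It was 0.441 with cells thinned to 2000 UMIs before the rule and 0.384 without the Cd34/Mpo/Cdk6 cells, an alternative chosen after seeing the data. The ratio of mast-gate shares was 0 and stayed at 0 without doublets and without the cell filter. It became 1.74 when 1 UMI of Kit sufficed and 1.08 when 2 UMIs from 1 mast gene sufficed, and Kit was present in all 22 Cd34/Mpo/Cdk6 cells. Each count of genes is given with the share of genes that passed. The 301 genes (8.46%) at least 2-fold higher became 631 (10.8%) with no CPM minimum, 118 (6.50%) at 100 CPM and 50 UMIs, 734 (16.0%) without mitochondrial, ribosomal and hemoglobin genes in the total, 753 (20.9%) with cells weighted equally, 508 (13.8%) without the deepest members, 484 (13.3%) with a rule of 5 UMIs and 183 of 914 with thinned members. The 547 genes (15.4%) at least 2-fold lower became 272 (15.0%) at 100 CPM and 50 UMIs, 310 (22.1%) in the basophil gate alone, 204 (22.3%) with thinned members and, in alternatives chosen after seeing the data, 346 (9.61%) in the Cd34/Mpo/Cdk6 cells and 116 (12.1%) in the Prss34-high cells. Other counts stayed within 1.5-fold, but the shares higher were 26.5% in the basophil gate and 25.7% in the Prss34-high cells. No paired analysis was possible because each group has 1 library. With 286824 and 700278 UMIs, a gene at 0 could be present at up to 10.5 CPM under lenvatinib and 4.28 CPM under combo.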
